A study of Homo sapiens with 12 samples.

Results

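The response of human prostate cancer cells to palbociclib was compared between libraries labelled C4-2 and libraries labelled DU145, gene by gene, and both names stand for the libraries with those labels throughout. All libraries with counts entered the comparison, 11 of 12, and both count tables were joined by gene identifier. The joined table held 56747 genes, of which 18139 passed the filter on low counts and were tested. The description was restricted to the 9526 genes with a mean of at least 5 CPM in each set of libraries, where CPM is the count of a gene relative to its library total. The measure of interest was the interaction, which is the log2 fold change of palbociclib against DMSO in the DU145-labelled set minus the same in the C4-2-labelled set. Levels were not compared between the sets, which lie in separate tables with different depth.

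The 4 groups were C4-2 with palbociclib (3 libraries), C4-2 with DMSO (2 libraries), DU145 with palbociclib (3 libraries) and DU145 with DMSO (3 libraries). Palbociclib is a small-molecule inhibitor of CDK4 and CDK6, and DMSO is its solvent. All 4 groups shared RPMI-1640 medium with 10% fetal bovine serum. Stranded libraries were prepared from 1.3 µg of RNA each, and no engineered genotype is labelled. Dose and duration of treatment are not given in the sources read here. Separate cultures are not named for replicates, so p-values reflect spread among libraries that may be technical replicates.

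CDK4 and CDK6, with D-type cyclins, phosphorylate the retinoblastoma protein RB1 and its relatives RBL1 and RBL2. Unphosphorylated RB1 holds E2F transcription factors inactive, which keeps the genes of DNA replication silent, and RBL1 and RBL2 serve in the DREAM complex that silences genes of mitosis. C4-2 descends from LNCaP and is known to keep RB1, while DU145, grown from a metastasis, is known to lack functional RB1. The purpose given in the series title is the link of CDK4/6 to STING signalling, through routes with and without RB1. In that pathway CGAS senses cytosolic DNA and interferon-stimulated genes are induced. Other programmes that matter here are the ATF4 stress response, which raises amino acid synthesis and transport, and the TFEB programme, which raises genes of the lysosome.

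Totals ran from 2608851 to 3489659 counts in the C4-2-labelled libraries and from 16108999 to 16674393 in the DU145-labelled ones, a ratio of 5.33 between the means. The median standard error (SE) of a log2 fold change was 0.13 in the first set and 0.08 in the second, so smaller responses passed the test in DU145. The luminal prostate genes KLK3, KLK2 and FOLH1 were at 0 counts in all 11 libraries, and ACP3 was at 0 in the C4-2-labelled libraries, which goes against the C4-2 label. The epithelial keratin KRT8 was present, at a mean of 566 CPM in C4-2 and 1524 CPM in DU145. The summed CPM of 6 simple epithelial markers was 456 to 497 with palbociclib against 1186 to 1195 with DMSO in C4-2, and 2068 to 2213 against 3221 to 3563 in DU145. It was lower with palbociclib in both sets, where fewer such cells and less RNA per cell cannot be told apart, and its part in the results was not tested. The fall was carried by KRT8 and KRT18, with KRT19 in C4-2 and KRT7 in DU145. In C4-2, mean levels were 2.57 against 0.882 CPM for KRT7, 1.47 against 0.739 CPM for EPCAM and 0.568 against 0.309 CPM for CDH1. A level of 3 counts is 0.86 to 1.15 CPM in the C4-2 libraries. The DMSO means of KRT7, EPCAM and CDH1 were near or under it, and CDH1 was under it in every C4-2 library. No direction is therefore read from KRT7, EPCAM and CDH1 in C4-2. Sums of 8 leukocyte markers were 1.38 to 3.83 against 2.98 to 3.15 CPM in C4-2 and 7.46 to 8.15 against 2.68 to 4.09 CPM in DU145, where CD14 averaged 3.70 against 0.329 CPM and PTPRC, CD3E and MS4A1 were at 0. Sums of 8 stromal markers, mostly COL1A1, were 166 to 215 against 254 to 284 CPM in C4-2 and 54.5 to 63.9 against 57.2 to 65.4 CPM in DU145. The mitochondrial share of counts in DU145 was 3.07% to 3.37% with palbociclib against 4.40% to 4.92% with DMSO. The leukocyte sum and this share separated the DU145 treatments, the stromal sum the C4-2 ones, and their part in the results was not tested. In DU145, both libraries numbered 3 stood apart from the other replicates, and the comparisons without them are given at the close.

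The responses of both sets were nearly uncorrelated across genes. Of the 9526 genes, 4219 passed the test in C4-2 (44.3%) and 6410 in DU145 (67.3%), at an adjusted p of 0.05 in edgeR's quasi-likelihood test with Benjamini-Hochberg adjustment. In C4-2, 1622 genes were higher with palbociclib (17% of those described) and 2597 lower (27.3%). The 1622 became 1071 without C4-2 DMSO replicate 1, 1012 without replicate 2 and 2449 with each set fitted alone. In DU145, 3237 were higher (34%) and 3173 lower (33.3%). The counts of gene lists below stand beside these shares of the genes described, and a count near its share is no result about the list. Over all 18139 genes tested, before the CPM limit, 28% passed in C4-2, 52.8% in DU145 and 33.4% for the interaction. Of the 2934 genes that passed in both, 1521 had the same direction (16%) and 1413 had opposite directions (14.8%). Over all genes tested these shares were 9.39% and 8.56%. The same direction was thus found in 51.8% of the genes called in both. Across the 9526 genes, Pearson's r between the log2 fold changes was 0.04 and Spearman's rho 0.03, where genes are not independent replicates and each set shares its libraries.

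Among genes called in both sets, 617 were higher in both, 904 lower in both, 525 higher in C4-2 and lower in DU145, and 888 the reverse. A further 1285 genes were called in C4-2 alone and 3476 in DU145 alone, and 1831 in neither. The interaction itself passed for 5062 genes (53.1%), with the DU145 response the higher one for 3014 (31.6%) and the lower one for 2048 (21.5%). It was at least 2-fold in size for 1493 of these. For 2645 genes (27.8%), the 95% interval of the interaction lay within 1.5-fold either way, which is called a similar response here. Of those, 330 were higher in both sets, 383 lower in both and 932 called in neither. Passing in 1 set alone was no measure of a difference: of the 3476 genes called in DU145 alone, 1979 had an interaction past the threshold and 806 had a similar response. The share of C4-2 calls that were higher was 38.4% with TMM scaling and 52.0% when libraries were scaled by their totals (2182 higher, 2018 lower). Likewise 59.5% of interaction calls were higher in DU145 with TMM and 49.8% with library totals (2485 higher, 2509 lower). The median interaction over all genes described was 0.10 with TMM and -0.004 with totals, so differences near 0.1 depend on the scaling.

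Changes of at least 2-fold that passed the test were found for 651 genes in C4-2 (214 higher, 437 lower) and 563 in DU145 (235 higher, 328 lower). Only 81 genes changed by that much in both sets, of which 42 moved the same way and 39 opposite ways. Of the 39, 31 were higher in C4-2 and lower in DU145, and 8 were the reverse. CPM values did not overlap between treatments in either set for 4434 genes (46.5%, against 30.7% over all genes tested). At the limit of 5 CPM, SFXN2 lay just inside, with means of 5.01 CPM in C4-2 and 6.63 CPM in DU145. ID2 lay just outside, with 82.5 CPM in C4-2 and 4.99 CPM in DU145. A gene could pass this limit through the treatment group where it was high.

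**Figure D1:**
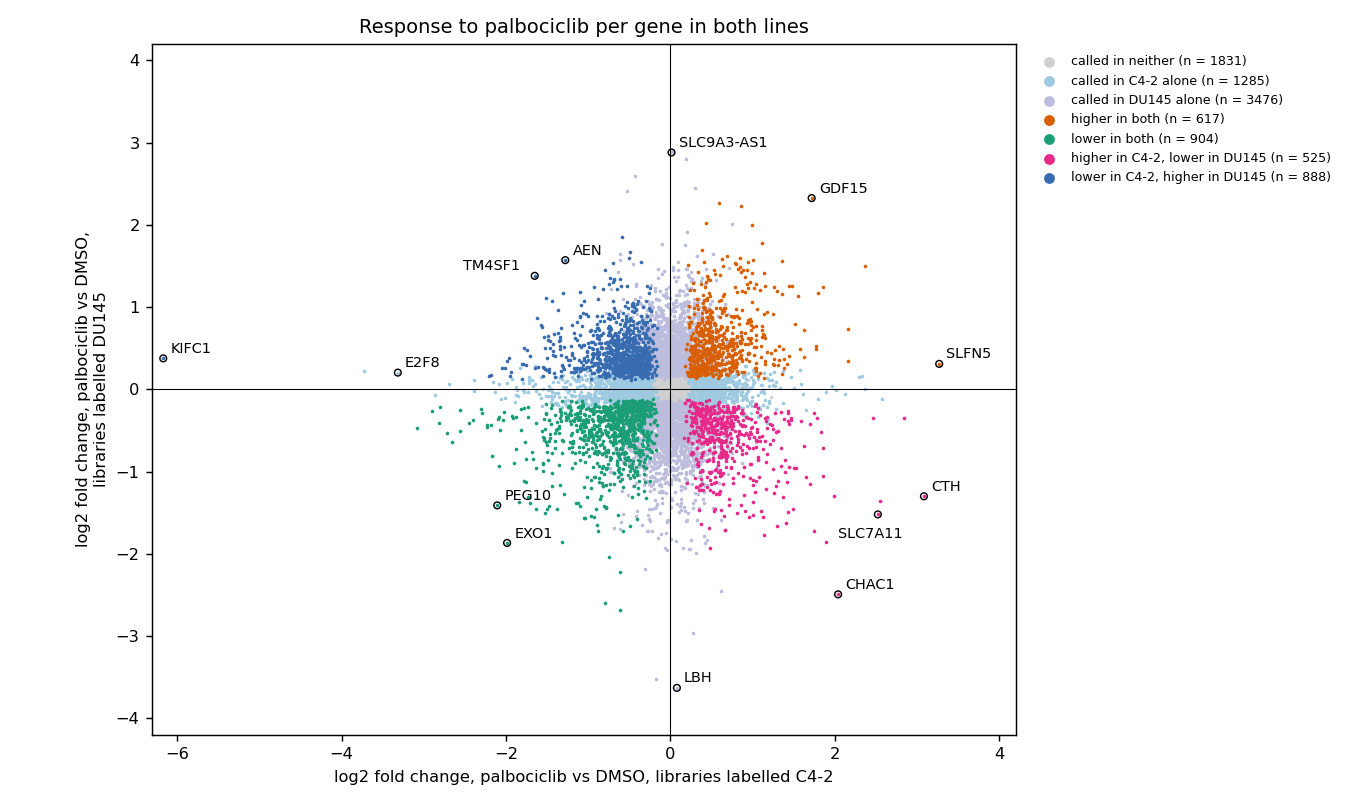
Each of the 9526 genes is 1 point, with its log2 fold change (palbociclib against DMSO) in C4-2-labelled libraries on the x axis and in DU145-labelled libraries on the y axis, coloured by which set passed the test and in which direction. All 4 quadrants are filled, CHAC1, CTH and SLC7A11 lie far out at lower right, EXO1 and PEG10 at lower left, and KIFC1 stands alone at far left, on 0 to 2 counts per C4-2 palbociclib library.

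The drug's own targets moved in opposite directions. CDK6 (chr7:92604921-92836594), the target kinase, read 277, 263 and 291 CPM with palbociclib against 388 and 369 CPM with DMSO in C4-2. In DU145 it read 504, 479 and 460 CPM against 323, 315 and 280 CPM. The treatments did not overlap in either set. Its log2 fold changes were -0.55 ± 0.07 (SE, n = 3 and 2) in C4-2 and 0.66 ± 0.06 (n = 3 and 3) in DU145, and the interaction was 1.21 (95% interval 1.02 to 1.39, edgeR's quasi-likelihood adjusted p = 4.04e-12). CDK4, the other target, fell by 0.44 ± 0.11 in C4-2 and rose by 0.51 ± 0.06 in DU145, with an interaction of 0.94 (0.69 to 1.2, edgeR adjusted p = 2.18e-07). Its C4-2 change did not pass without C4-2 DMSO replicate 1 (-0.37, edgeR adjusted p = 0.0678), and reads of the overlapping genes TSPAN31 and MARCHF9 cannot be told apart from its own in the C4-2 table, which was counted without strand.

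CCND1, the D-type cyclin that activates both kinases, read 966, 954 and 959 CPM with palbociclib against 428 CPM in both DMSO libraries of C4-2. The DU145 libraries gave 104, 102 and 103 CPM against 91.6, 89.9 and 96.3 CPM. The rise was 1.07 ± 0.06 in C4-2 and 0.16 ± 0.05 in DU145, where it did not pass without DU145 DMSO replicate 2 (0.14, edgeR adjusted p = 0.052). The interaction of -0.91 (-1.07 to -0.74) had an edgeR adjusted p of 1.34e-10. CCND3, a second D-type cyclin, fell by 1.09 ± 0.14 in C4-2, with -0.04 ± 0.08 in DU145. CDKN1A, which encodes the CDK inhibitor p21, did not pass in C4-2 (0.09 ± 0.12), where its 45.0, 59.4 and 47.7 CPM overlapped the 41.0 and 48.1 CPM of DMSO. In DU145 it stood at 483, 487 and 515 CPM against 181, 176 and 189 CPM. Its interaction was 1.36 (1.08 to 1.64, edgeR adjusted p = 1.26e-09). CDKN1B, which encodes the inhibitor p27, went the other way, with 0.06 ± 0.11 in C4-2 and a fall by 0.65 ± 0.07 in DU145 (interaction -0.71, -0.97 to -0.45). The INK4 inhibitor gene CDKN2C fell in both, by 1.76 ± 0.12 and 1.13 ± 0.07, and further in C4-2 (interaction 0.63, 0.33 to 0.93).

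RB1, the main substrate, passed in neither set, with log2 fold changes of -0.15 ± 0.12 and 0.15 ± 0.07 and an interaction of 0.30 (0.02 to 0.59, edgeR adjusted p = 0.102). Its DU145 value did pass with replicate number as a block (0.15, edgeR adjusted p = 0.00566) and without DU145 DMSO replicate 1 (0.21, edgeR adjusted p = 0.0477). Without DU145 palbociclib replicate 3, both the DU145 value (0.21, edgeR adjusted p = 0.0142) and the interaction (0.35, edgeR adjusted p = 0.0398) passed. RBL1 fell in both, by 1.76 ± 0.13 in C4-2 and 0.64 ± 0.08 in DU145 (interaction 1.13, 0.81 to 1.44). RBL2 rose by 0.66 ± 0.13 in C4-2 and fell by 0.27 ± 0.08 in DU145 (interaction -0.93, -1.23 to -0.62). E2F1, the transcription factor that RB1 restrains, read 11.1, 10.7 and 7.10 CPM with palbociclib against 41.3 and 42.4 CPM in C4-2. Its DU145 values were 132, 125 and 148 CPM against 191, 177 and 193 CPM. It was lower in every palbociclib library of both sets. The fall was 2.24 ± 0.17 in C4-2 and 0.46 ± 0.07 in DU145, and the interaction was 1.77 (1.39 to 2.16, edgeR adjusted p = 4.96e-09). CCNE2, an E-type cyclin, fell by 3.09 ± 0.26 in C4-2 and by 0.47 ± 0.12 in DU145, though the DU145 change did not pass at the depth of the C4-2 libraries (-0.29, edgeR adjusted p = 0.222). The C4-2 palbociclib libraries held 11, 8 and 9 counts of it. INTS8 (70.1 CPM in C4-2) and NDUFAF6 (20.6 CPM) overlap it on the other strand. In the C4-2 table, counted without strand, their reads cannot be told apart from those of CCNE2 (11.9 CPM). CCNE1, its relative, had similar values, -0.33 ± 0.21 and -0.43 ± 0.09, with an interaction of -0.10 (-0.57 to 0.38).

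The E2F1 promoter is shown because this gene, which E2F factors are known to control, fell in both sets by unequal amounts. It comes from RefSeq (GRCh38.p14, chr20:33686386-33686458, minus strand), and capitals mark both E2F sites, which begin 33 and 20 bases before the transcription start.
E2F1: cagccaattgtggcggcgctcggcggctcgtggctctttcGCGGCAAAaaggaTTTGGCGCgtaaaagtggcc
The spellings TTTGGCGC, TTTCCCGC, TTTCGCGC and TTTGCCGC were searched on both strands in the 250 bases before each start. At least 1 of them was found in 29.2% of the promoters of the list of replication and E2F target genes, against 4.84% over all genes described that had a promoter (7789) and 2.79% over all 27305 promoters.

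**Figure D2:**
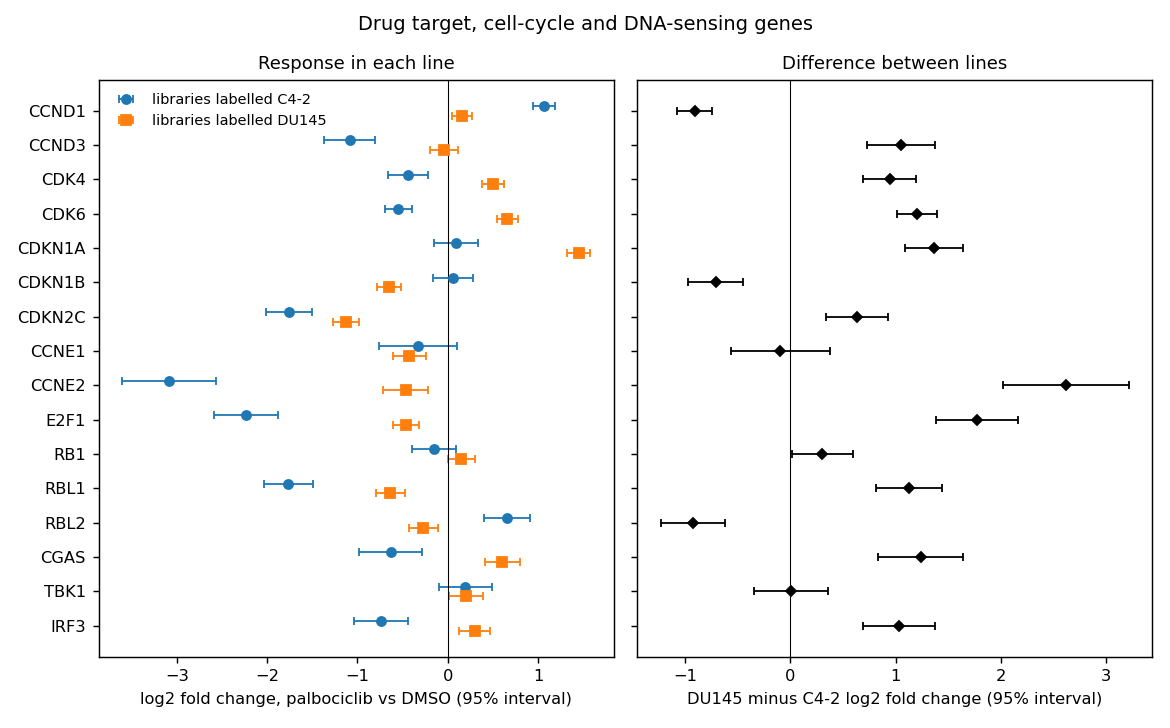
Log2 fold changes of 16 drug target, cell-cycle and DNA-sensing genes in each set (left, circles for C4-2-labelled, squares for DU145-labelled libraries) and the DU145 minus C4-2 difference (right), with 95% intervals as bars. CDK4, CDK6, CGAS and IRF3 lie on opposite sides of 0 in the 2 sets, whereas CCNE1 and TBK1 have differences whose intervals span 0.

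Genes of DNA replication fell in C4-2 and were mixed in DU145. Of 55 replication and E2F target genes (of 56 listed), 54 were lower in C4-2 and none higher, with a median log2 fold change of -1.55. In DU145, 29 were lower and 12 higher, with a median of -0.18, where the medians over all genes described were -0.07 and 0.01. The interaction passed for 48 of the 55, each with the higher response in DU145. FEN1, the flap nuclease of the replication fork, read 25.9, 29.5 and 26.4 CPM with palbociclib against 73.1 and 79.2 CPM in C4-2. Corresponding DU145 values were 459, 470 and 449 CPM against 265, 270 and 274 CPM, so it was clearly lower in one set and clearly higher in the other (-1.58 ± 0.10 and 0.78 ± 0.05). FEN1 shares part of its locus with FADS2 on the same strand. ORC6, a subunit of the origin recognition complex, had the same pattern, -1.0 ± 0.13 and 0.90 ± 0.07. MCM7, a subunit of the replicative helicase, fell by 2.16 ± 0.08 in C4-2 and read 0.09 ± 0.05 in DU145, which passed with replicate number as a block (0.09, edgeR adjusted p = 0.0247) and without DU145 DMSO replicate 3 (0.15, edgeR adjusted p = 0.0196).

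Some replication genes fell alike. EXO1 (chr1:241847967-241895148), a 5′ exonuclease of mismatch repair, read 13.2, 13.4 and 16.9 CPM with palbociclib against 53.3 and 55.4 CPM in C4-2. In DU145 it read 30.4, 26.7 and 28.9 CPM against 108, 108 and 99.3 CPM. All palbociclib libraries were far below all DMSO libraries in both sets. The falls of 1.99 ± 0.14 and 1.87 ± 0.08 differed by 0.12 (-0.22 to 0.46), a similar response. PRIM1, the small subunit of DNA primase, fell by 1.63 ± 0.17 and 1.45 ± 0.10, although it overlaps NACA on the same strand. In all, 28 genes of this list were lower in both sets, 4 had a similar response, and none was higher in both.

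Genes of mitosis fell in C4-2 throughout and more often rose than fell in DU145. All 60 of its measured genes (of 62 listed) were lower in C4-2, with a median of -1.37. In DU145, 33 were higher and 8 lower, with a median of 0.19. The 33 genes were thus lower in one set and higher in the other, and the interaction passed for all 60. The count of 8 lower ones became 13 with replicate number as a block, 4 without DU145 DMSO replicate 1, 5 without DMSO replicate 2 and 5 without DU145 palbociclib replicate 3. MKI67, the proliferation antigen Ki-67, read 211, 230 and 217 CPM with palbociclib against 815 and 811 CPM in C4-2. The DU145 libraries gave 576, 535 and 546 CPM against 431, 439 and 443 CPM. The log2 fold changes were -1.99 ± 0.06 and 0.34 ± 0.05, an interaction of 2.33 (2.17 to 2.49). TPX2, a spindle assembly factor, and AURKA, the kinase it activates, behaved alike, with -1.33 ± 0.07 and 0.75 ± 0.05 for TPX2 and -1.17 ± 0.09 and 0.68 ± 0.06 for AURKA. SMC4, a condensin subunit, was among the 8 that fell in both, by 1.19 ± 0.08 and 0.63 ± 0.07. The letters TTTGAA, the cell cycle homology region bound by the DREAM and MuvB complexes, were in 54.0% of the promoters of this list, against 7.93% over all genes described and 13.6% over all promoters, on either strand.

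KIFC1, a mitotic kinesin, had the most negative fitted change in C4-2 and was looked at after its values were seen. It had 1, 0 and 2 counts in the C4-2 palbociclib libraries, against 33 and 119 counts in the DMSO libraries, which differ from each other as well. In DU145 it stood at 158, 163 and 171 CPM against 122, 126 and 133 CPM. No fold is given for C4-2 because its palbociclib libraries were at or under 3 counts.

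Of 24 cyclins, CDKs, CDK inhibitors and pocket proteins, 14 were lower and 3 higher in C4-2, and 11 lower and 9 higher in DU145, with 8 moving the same way and 6 opposite ways. Shares over all genes described were 27.3% lower and 17% higher in C4-2, and 33.3% lower and 34% higher in DU145. The same way was found for 16% of them and opposite ways for 14.8%. CDK2, the partner of cyclins E and A, fell by 1.27 ± 0.12 in C4-2 and rose by 0.39 ± 0.06 in DU145. CCNA2, which encodes cyclin A, fell by 1.73 ± 0.11 in C4-2, with -0.03 ± 0.07 in DU145. Of 22 genes of DNA methylation and heterochromatin, 13 were lower and 2 higher in C4-2 (median -0.50). In DU145, 9 were lower (against 33.3% over all genes described) and 6 higher, or 10 higher with the replicate block (median 0.06). DNMT3B, a de novo DNA methyltransferase, rose by 0.61 ± 0.11 in C4-2 and fell by 0.78 ± 0.09 in DU145, the reverse of the cell-cycle pattern.

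The genes that rose in C4-2 and fell in DU145 were led by amino acid stress genes. Of the 10 with the largest changes in both sets, CHAC1, CTH, SLC7A11, ASNS, TRIB3, PCK2, ADM2 and ULBP1 ranged from 1.37 to 3.08 in C4-2 and from -2.49 to -1.30 in DU145. NEBL (1.41 and -1.62) and RWDD2B (1.42 and -1.49) completed the 10. These genes were picked for their size, so the values are a description. CHAC1 (chr15:40952962-40956519), an enzyme that degrades glutathione, read 51.6, 47.1 and 45.3 CPM with palbociclib against 11.2 and 10.6 CPM in C4-2. Its DU145 values were 2.41, 3.15 and 4.44 CPM against 19.6, 18.3 and 18.9 CPM. Its response was thus 2.04 ± 0.19 in C4-2 and -2.49 ± 0.14 in DU145. SLC7A11 (chr4:138164097-138242349), the cystine importer, read 1221, 1237 and 1284 CPM against 203 and 204 CPM in C4-2. Corresponding DU145 values were 36.9, 32.9 and 28.4 CPM against 101, 101 and 81.9 CPM. SLC7A11 was high with palbociclib in C4-2 and low with it in DU145, with no overlap in either set.

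CTH, which makes cysteine from cystathionine, had the largest C4-2 rise of these genes. It read 81.7, 80.5 and 83.8 CPM against 10.6 and 7.30 CPM in C4-2, and 22.8, 22.6 and 21.1 CPM against 53.1, 57.8 and 53.8 CPM in DU145. TRIB3, a pseudokinase that feeds back on ATF4, read 242, 249 and 250 CPM against 94.6 and 83.9 CPM in C4-2. In DU145 it read 103, 113 and 131 CPM against 283, 283 and 302 CPM, a change of 1.37 ± 0.10 in one set and of -1.31 ± 0.07 in the other. ASNS, asparagine synthetase, read 10.7, 12.7 and 8.88 CPM against 1.72 and 1.66 CPM in C4-2, and 6.52, 5.88 and 6.36 CPM against 15.0, 17.3 and 16.2 CPM in DU145. Its C4-2 DMSO values rest on few counts, and it overlaps 1 unnamed locus on the other strand and 1 on its own, the latter at 30.3% of its CPM in C4-2. The palbociclib libraries were on the high side in C4-2 and the low side in DU145 for each of these 3 genes.

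**Figure D3:**
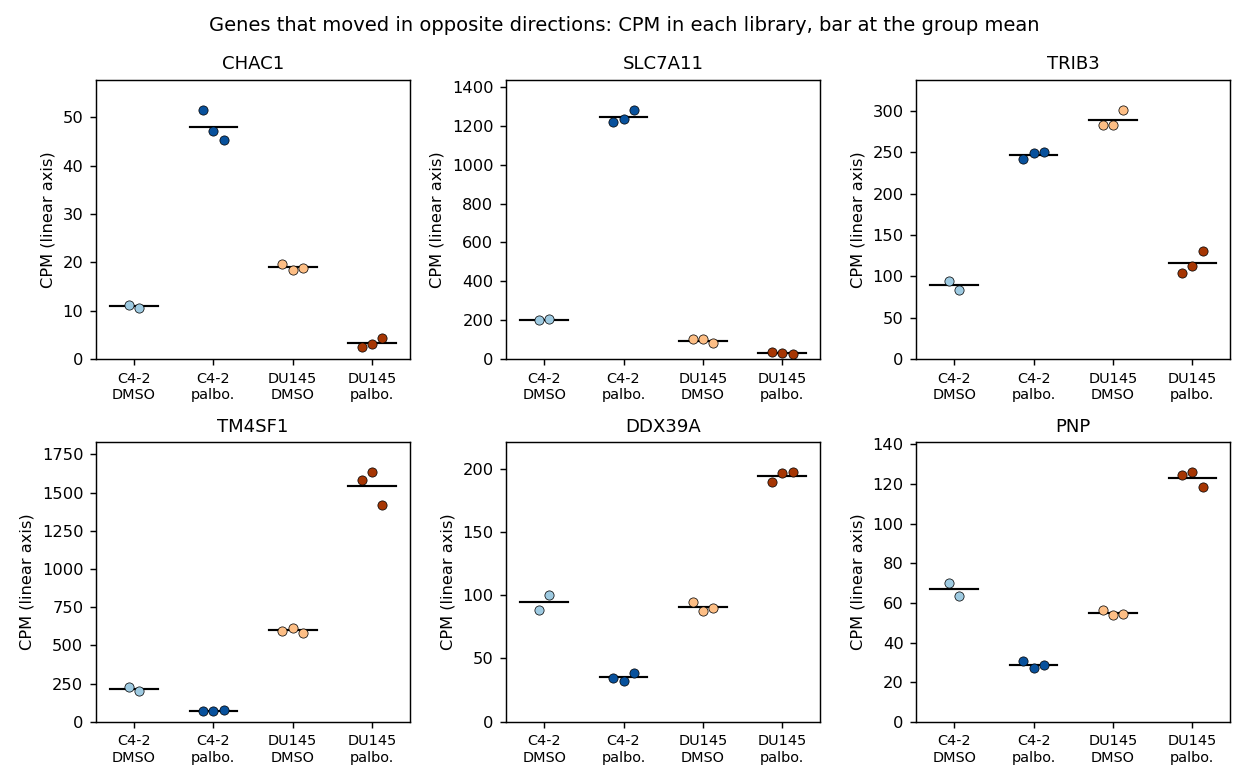
CPM in each library, on linear axes from 0, for 3 genes higher with palbociclib in C4-2-labelled and lower in DU145-labelled libraries (CHAC1, SLC7A11, TRIB3, top) and 3 genes of the reverse kind (TM4SF1, DDX39A, PNP, bottom), with the group mean as a bar. The points of each treatment do not overlap in either set, for example 45.3 to 51.6 against 10.6 to 11.2 CPM for CHAC1 in C4-2.

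The ATF4 list as a whole had the same pattern. Of 25 ATF4 stress factors and targets (of 27 listed), 23 were higher and none lower in C4-2, with a median of 1.14. In DU145, 17 were lower and 5 higher, with a median of -0.81. The interaction was lower in DU145 for 23 genes, and 16 genes were called in opposite directions. DDIT4, an inhibitor of mTORC1, rose by 1.14 ± 0.08 in C4-2 and fell by 1.77 ± 0.06 in DU145, and STC2, a secreted glycoprotein, rose by 1.85 ± 0.07 and fell by 0.71 ± 0.06. PPP1R15A, the phosphatase subunit that ends the stress response, was an exception. It read 117, 102 and 96.8 CPM against 41.0 and 48.1 CPM in C4-2, and 115, 117 and 135 CPM against 51.9, 50.9 and 51.5 CPM in DU145. It rose by 1.14 ± 0.12 and 1.26 ± 0.07, a similar response (interaction 0.11, -0.17 to 0.40). NUPR1, a stress-induced chromatin protein, rose in both by unequal amounts, 2.16 ± 0.17 and 0.34 ± 0.07.

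Amino acid supply and charging genes followed. Of 14 serine, glycine and folate one-carbon enzymes, 7 were higher and 4 lower in C4-2, and 1 was higher and 11 lower in DU145 (2 higher with the replicate block). PSAT1, an enzyme of serine synthesis, read 725, 718 and 742 CPM against 219 and 202 CPM in C4-2, and 159, 156 and 142 CPM against 362, 341 and 322 CPM in DU145. These changes of 1.69 ± 0.07 and -1.15 ± 0.06 gave an interaction of -2.85 (-3.04 to -2.66). ALDH1L2, a mitochondrial folate enzyme that overlaps NOPCHAP1, had 1.98 ± 0.15 and -1.29 ± 0.10. SHMT1, the cytosolic serine hydroxymethyltransferase, fell in both, by 0.87 ± 0.13 and 0.44 ± 0.07. Of 22 aminoacyl-tRNA synthetases, which charge tRNAs, 11 were higher in C4-2 and lower in DU145, 2 were the reverse, and FARSB was the one gene called the same way (-0.53 ± 0.09 and -0.51 ± 0.07). AARS1, the alanyl-tRNA synthetase, had 0.88 ± 0.06 and -1.05 ± 0.05. Of 16 amino acid transporters, 6 were higher in C4-2 and lower in DU145, 1 was the reverse and 3 were higher in both. SLC38A1, a glutamine transporter, was one of the 3, with 0.96 ± 0.07 and 0.85 ± 0.06.

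Promoters of CHAC1 and ASNS are shown because both genes moved in opposite directions and carry the letters of the C/EBP-ATF response element, TGATGNAA on either strand, the site of ATF4 with C/EBP partners. Capitals mark the match, which begins 209 bases before the RefSeq start of CHAC1 (chr15:40953222-40953309, plus strand) and 68 bases before that of ASNS (chr7:97872429-97872516, minus strand), both in GRCh38.p14.
CHAC1: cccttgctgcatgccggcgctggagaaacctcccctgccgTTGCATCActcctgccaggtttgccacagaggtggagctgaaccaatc
ASNS: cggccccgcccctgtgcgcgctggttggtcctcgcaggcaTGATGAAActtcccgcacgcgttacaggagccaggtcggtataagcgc
The element was in 3 of 21 promoters of the ATF4 list (14.3%), in 1.18% over all genes described and in 3.19% of all promoters. Among genes higher in C4-2 and lower in DU145 it was in 2.37%.

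NRF2, glutathione and redox genes were more often higher in C4-2 and more often lower in DU145. Of 30 genes, 17 were higher and 3 lower in C4-2 (5 lower with the replicate block), and 7 were higher and 14 lower in DU145. A similar response was found for 11, against 27.8% over all genes described. GCLM, the modifier subunit of the enzyme that starts glutathione synthesis, rose by 0.91 ± 0.10 and fell by 0.45 ± 0.08. CAT, catalase, rose by 0.44 ± 0.11 and fell by 1.07 ± 0.08. OSGIN1, an oxidative stress protein, rose in both, by 1.04 ± 0.15 and 1.28 ± 0.13.

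Interferon-stimulated genes rose in C4-2 and mostly fell in DU145. Of 35 measured (of 64 listed), 28 were higher and none lower in C4-2, with a median of 0.78. In DU145, 7 were higher and 21 lower, with a median of -0.35, and 17 genes were called in opposite directions. OAS1, which makes the activator of RNase L, read 81.7, 86.2 and 84.7 CPM with palbociclib against 28.9 and 29.2 CPM in C4-2. The DU145 libraries gave 10.8, 12.8 and 10.7 CPM against 22.5, 22.7 and 20.9 CPM. The changes of 1.44 ± 0.13 and -0.94 ± 0.10 gave an interaction of -2.38 (-2.71 to -2.05). DDX60L, an antiviral helicase whose locus overlaps PALLD on the other strand, read 84.1, 80.1 and 74.9 CPM against 30.7 and 32.2 CPM in C4-2, and 5.43, 3.09 and 4.74 CPM against 9.75, 8.55 and 7.81 CPM in DU145. PARP9, an ADP-ribosyltransferase, had 1.03 ± 0.12 and -1.24 ± 0.11, and overlaps its partner DTX3L.

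A few interferon-stimulated genes rose in both. ISG15 (chr1:1001138-1014540), a ubiquitin-like modifier, read 97.2, 86.6 and 97.1 CPM against 30.7 and 38.13 CPM in C4-2. Its DU145 values were 31.1, 27.2 and 33.9 CPM against 12.6, 14.1 and 14.8 CPM. Every palbociclib library exceeded every DMSO library of its set. The rises of 1.36 ± 0.13 and 1.16 ± 0.10 were similar (interaction -0.20, -0.55 to 0.15). IFIT2, which binds viral RNA and overlaps LIPA, rose by 0.83 ± 0.15 and 0.87 ± 0.15. SLFN5, a Schlafen family member, rose from 26.4 and 26.9 CPM to 263, 280 and 279 CPM in C4-2 (3.27 ± 0.11). Corresponding DU145 values were 44.2, 41.3 and 38.3 CPM against 33.3, 35.1 and 32.1 CPM (0.31 ± 0.07), a change that did not pass at the depth of the C4-2 libraries (0.25, edgeR adjusted p = 0.0675).

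The promoters of DDX60L and ISG15 are set side by side because these genes hold the same motif and had opposite and similar responses. Capitals mark the interferon-stimulated response element, searched on both strands as GAAA, any pair of bases, and GAAA. It begins 80 and 50 bases before the RefSeq start of DDX60L (chr4:168480493-168480612, minus strand) and 113 and 107 bases before that of ISG15 (chr1:1013344-1013439, plus strand), where the matches overlap, in GRCh38.p14.
DDX60L: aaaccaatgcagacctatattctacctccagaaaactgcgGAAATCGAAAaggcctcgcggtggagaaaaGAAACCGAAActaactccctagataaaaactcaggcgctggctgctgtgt
ISG15: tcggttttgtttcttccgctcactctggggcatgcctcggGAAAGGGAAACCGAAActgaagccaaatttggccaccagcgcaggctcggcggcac
The element was in 16 of the 31 promoters of this list (51.6%), against 1.98% over all genes described and 3.07% of all promoters.

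The cGAS-STING pathway itself had no single direction. Of 21 genes measured (of 30 listed), 10 were lower and 2 higher in C4-2, and 6 were lower and 11 higher in DU145. Opposite calls, lower in C4-2 and higher in DU145, were made for 8, and 4 moved the same way. Over all genes described, 27.3% were lower and 17% higher in C4-2, and 33.3% were lower and 34% higher in DU145. Opposite calls of this kind were 9.32% there, and 16% moved the same way. CGAS (chr6:73413515-73452276), the sensor of cytosolic DNA, read 17.0, 26.4 and 20.4 CPM against 29.2 and 32.2 CPM in C4-2, and 37.7, 41.0 and 37.6 CPM against 22.5, 27.6 and 26.7 CPM in DU145. The changes of -0.63 ± 0.17 and 0.61 ± 0.10 gave an interaction of 1.24 (0.84 to 1.64, edgeR adjusted p = 6.41e-06), but the C4-2 fall did not pass without C4-2 DMSO replicate 2 (-0.58, edgeR adjusted p = 0.0583). IRF3, the factor that the pathway activates, fell by 0.74 ± 0.15 and rose by 0.30 ± 0.08, and overlaps BCL2L12. TBK1, the kinase between them, passed in neither set (0.20 ± 0.15 and 0.20 ± 0.09), with a difference of 0.01 (-0.34 to 0.36) that was within 1.5-fold. Its DU145 value passed with the replicate block (0.20, edgeR adjusted p = 0.0348), without DU145 DMSO replicate 2 (0.28, edgeR adjusted p = 0.0204) and without DU145 palbociclib replicate 2 (0.28, edgeR adjusted p = 0.0202). STING1, the adaptor, was not among the genes described, since it averaged 0.233 CPM in DU145. In C4-2 it read 17.0, 12.3 and 17.8 CPM with palbociclib against 21.8 and 26.5 CPM with DMSO, without overlap. TREX1, the nuclease that clears cytosolic DNA, was at 0 counts in all 11 libraries. A count of 0 allows up to 0.86 to 1.15 CPM in the C4-2 libraries and 0.18 to 0.186 CPM in the DU145 ones (3 counts, counting error only). That limit holds only where reads of a gene are assigned to it, which was not tested for TREX1.

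MHC class I genes included several with a similar response. Of 12 measured, 4 were higher in both and 8 had a similar response, against 6.48% and 27.8% over all genes described. B2M, the class I light chain, rose by 0.72 ± 0.07 and 0.41 ± 0.06, and HLA-B, a heavy chain, by 0.40 ± 0.07 and 0.32 ± 0.06, although related HLA genes can share reads. CALR, a chaperone of loading, fell by 0.65 ± 0.06 in C4-2 and rose by 0.55 ± 0.05 in DU145. C4-2 had 5 higher genes here with TMM scaling and 8 with library totals. Of 18 cytokines and NF-kB targets, 7 were higher and 2 lower in C4-2, and 10 were higher and 4 lower in DU145. Over all genes described, 17% were higher and 27.3% lower in C4-2, and 34% higher and 33.3% lower in DU145. CSF1, a macrophage growth factor, read 0.06 ± 0.09 in C4-2 and rose by 1.15 ± 0.09 in DU145, and LIF, a cytokine of the interleukin-6 family, read -0.03 ± 0.10 and rose by 1.04 ± 0.09.

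Genes of ribosome biogenesis mostly fell in C4-2 and mostly rose in DU145. Of 49 genes of ribosome biogenesis, 39 were lower and none higher in C4-2 (median -0.52), whereas 42 were higher and 2 lower in DU145 (median 0.40). Of these, 34 were called in opposite directions. NOP56, a core protein of box C/D snoRNPs, read 152, 156 and 155 CPM against 261 and 292 CPM in C4-2, and 181, 183 and 179 CPM against 131, 138 and 132 CPM in DU145. NOP16, a nucleolar factor that overlaps HIGD2A, had the largest opposite changes of the list by the smaller of both, -0.93 ± 0.16 and 1.25 ± 0.08. BYSL, a factor of small subunit assembly, had -0.84 ± 0.12 and 0.90 ± 0.07.

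Cytosolic heat shock chaperones moved likewise. Of 20, 15 were lower and 3 higher in C4-2 (median -0.59), and 16 were higher and none lower in DU145 (median 0.69). HSPA8, the constitutive HSP70, read 1344, 1299 and 1295 CPM against 2621 and 2623 CPM in C4-2. In DU145 it read 1124, 1178 and 1006 CPM against 600.2, 619 and 568 CPM. Its changes were -1.09 ± 0.06 and 0.90 ± 0.05, an interaction of 1.99 (1.84 to 2.15). HSPB8, a small heat shock protein, was one of 2 that rose in both, by 0.63 ± 0.10 and 1.59 ± 0.06. All 8 subunits of the TRiC chaperonin, which folds actin and tubulin, were lower in C4-2 and 6 were higher in DU145, with CCT5 at -0.87 ± 0.05 and 0.43 ± 0.05. Of 28 proteasome subunits, 22 were lower and 1 higher in C4-2, 17 were higher and 4 lower in DU145, and 12 were called in opposite directions. The 4 became 2 without DU145 palbociclib replicate 1, palbociclib replicate 2 or DMSO replicate 3. PSMC2, an ATPase of the proteasome base, had -0.43 ± 0.08 and 0.61 ± 0.06, while PSMD4, a ubiquitin receptor, fell in both by 0.63 ± 0.08 and 0.83 ± 0.06.

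Of the 10 genes with the largest falls in C4-2 and rises in DU145, TM4SF1 had the largest fall and AEN the largest rise. TM4SF1 (chr3:149369022-149377865), a surface protein related to tetraspanins, read 70.6, 72.1 and 75.8 CPM against 226 and 203 CPM in C4-2. The DU145 libraries gave 1585, 1632 and 1419 CPM against 596, 615 and 579 CPM. The changes were -1.65 ± 0.08 and 1.38 ± 0.05. DDX39A, an RNA helicase of mRNA export, read 35.0, 32.2 and 38.2 CPM against 88.5 and 100.5 CPM in C4-2, and 189, 197 and 197 CPM against 94.3, 87.4 and 90.1 CPM in DU145. PNP, purine nucleoside phosphorylase, had -1.31 ± 0.11 and 1.17 ± 0.07, and AEN, a nuclease induced by p53, had -1.28 ± 0.15 and 1.57 ± 0.07. The other 6 were AP1M2, ARID3B, CCDC137, EMP1, STX11 and HSP90AA2P, the last a near-copy of HSP90AA1 whose reads are uncertain. As with the 10 of the reverse kind, these values chose the genes.

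Lysosomal genes gave the largest count of genes higher in both sets among the 32 lists, which differ in size. By share the V-ATPase list stood above them, with 7 of 15 higher in both. Of 41 lysosomal hydrolases and membrane proteins (of 54 listed), 25 were higher and 1 lower in C4-2, and 24 were higher and 7 lower in DU145. The medians were 0.42 and 0.36, and 16 genes were higher in both (against 6.48% over all genes described). Opposite directions were called for 4, and 13 had a similar response, a share near the 27.8% over all genes described. TPP1, a lysosomal peptidase, read 107 CPM in each of the 3 C4-2 palbociclib libraries against 47.3 and 43.4 CPM, and 196, 190.0 and 191 CPM against 72.4, 69.2 and 75.9 CPM in DU145. The rises of 1.14 ± 0.10 and 1.42 ± 0.06 were within 1.5-fold of each other. Their difference of 0.28 passed without DU145 DMSO replicate 3 (0.31) and with the replicate block (0.29), and has no p because the gene was chosen from its list. SLC17A5, the sialic acid exporter, rose by 0.90 ± 0.15 and 1.18 ± 0.10. MANBA, a mannosidase, rose by 0.72 ± 0.15 in C4-2 and fell by 0.44 ± 0.10 in DU145. CD63, a lysosomal tetraspanin, read 0.01 ± 0.07 in C4-2 and rose by 0.98 ± 0.05 in DU145.

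The V-ATPase, the proton pump that acidifies lysosomes, rose further in DU145. Of its 15 measured subunits, 8 were higher in C4-2 and 14 in DU145, none was lower in either, and the medians were 0.25 and 0.97. The C4-2 count was 5 without C4-2 DMSO replicate 1 and 5 without replicate 2. ATP6V1C1, a subunit of the pump's stalk, read 134, 139.5 and 129.95 CPM against 96.6 and 92.5 CPM in C4-2. Its DU145 values were 161, 167 and 146 CPM against 55.8, 53.4 and 54.2 CPM. It rose by 0.41 ± 0.09 and 1.55 ± 0.07, an interaction of 1.14 (0.91 to 1.36). The interaction was higher in DU145 for 11 subunits and lower for 1.

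Of 34 autophagy and TFEB feedback genes, 17 were higher and 1 lower in C4-2, and 20 were higher and 6 lower in DU145, with medians of 0.32 in both, and 11 were higher in both. The C4-2 count fell to 11 without C4-2 DMSO replicate 1, to 10 without replicate 2 and to 11 without C4-2 palbociclib replicate 3. SQSTM1 (chr5:179806398-179838078), the autophagy receptor p62, read 1124, 1149 and 1145 CPM against 429.55 and 439 CPM in C4-2. Corresponding DU145 values were 993, 1016 and 1095 CPM against 448, 438 and 476 CPM. SQSTM1 was high in every palbociclib library, and the rises of 1.30 ± 0.06 and 1.2 ± 0.05 were a similar response, at a locus that MGAT4B overlaps. RRAGC (chr1:38838198-38859823), a Rag GTPase that ties amino acids to mTORC1, read 45.7, 54.0 and 56.2 CPM against 15.5 and 19.9 CPM in C4-2, and 43.8, 43.2 and 36.8 CPM against 17.4, 16.4 and 18.2 CPM in DU145. MITF, a factor related to TFEB, fell by 1.31 ± 0.16 in C4-2, with 0.03 ± 0.07 in DU145.

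The RRAGC promoter is shown because the gene rose in both sets and holds the CLEAR E-box, the site of TFEB and TFE3, searched as GTCACGTG on both strands. Capitals mark the match, which begins 112 bases before the RefSeq start (GRCh38.p14, chr1:38859837-38859924, minus strand).
RRAGC: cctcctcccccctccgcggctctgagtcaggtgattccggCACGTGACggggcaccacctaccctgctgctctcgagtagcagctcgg
The CLEAR E-box was in 18.5% of the promoters of the lysosomal list and 30.0% of those of the V-ATPase list, against 4.48% over all genes described and 2.27% of all promoters. Among the genes higher in both sets it was in 10.0%. It holds within it the canonical E-box CACGTG, which other factors also bind.

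Other genes with the largest shared changes had mixed roles. GDF15, a stress-induced cytokine, read 22.8, 21.1 and 21.0 CPM against 5.73 and 6.63 CPM in C4-2, and 494, 544 and 642 CPM against 113, 108 and 116 CPM in DU145. Its rises of 1.72 ± 0.24 and 2.33 ± 0.07 differed by 0.61 (0.03 to 1.18), which did not pass but did without DU145 palbociclib replicate 1 (0.69). No p is given for this difference, since the size of both responses chose the gene. PPP1R3B, a glycogen-targeting phosphatase subunit, rose by 1.36 ± 0.13 and 1.57 ± 0.09, and HS1BP3, a cortactin-binding regulator, by 1.26 ± 0.15 and 1.24 ± 0.08. PEG10, an imprinted gene derived from a retrotransposon, read 207, 202 and 199.5 CPM against 811 and 821 CPM in C4-2. In DU145 it read 80.1, 74.8 and 70.6 CPM against 205, 198 and 199.7 CPM. It fell in both, further in C4-2 (-2.11 ± 0.07 and -1.41 ± 0.06, interaction 0.70, 0.52 to 0.87), with SGCE overlapping it. ID1, a regulator that blocks basic helix-loop-helix factors, fell by 1.71 ± 0.14 and 1.38 ± 0.06, and GLI2, a Hedgehog effector, by 1.52 ± 0.24 and 1.5 ± 0.11.

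**Figure D4:**
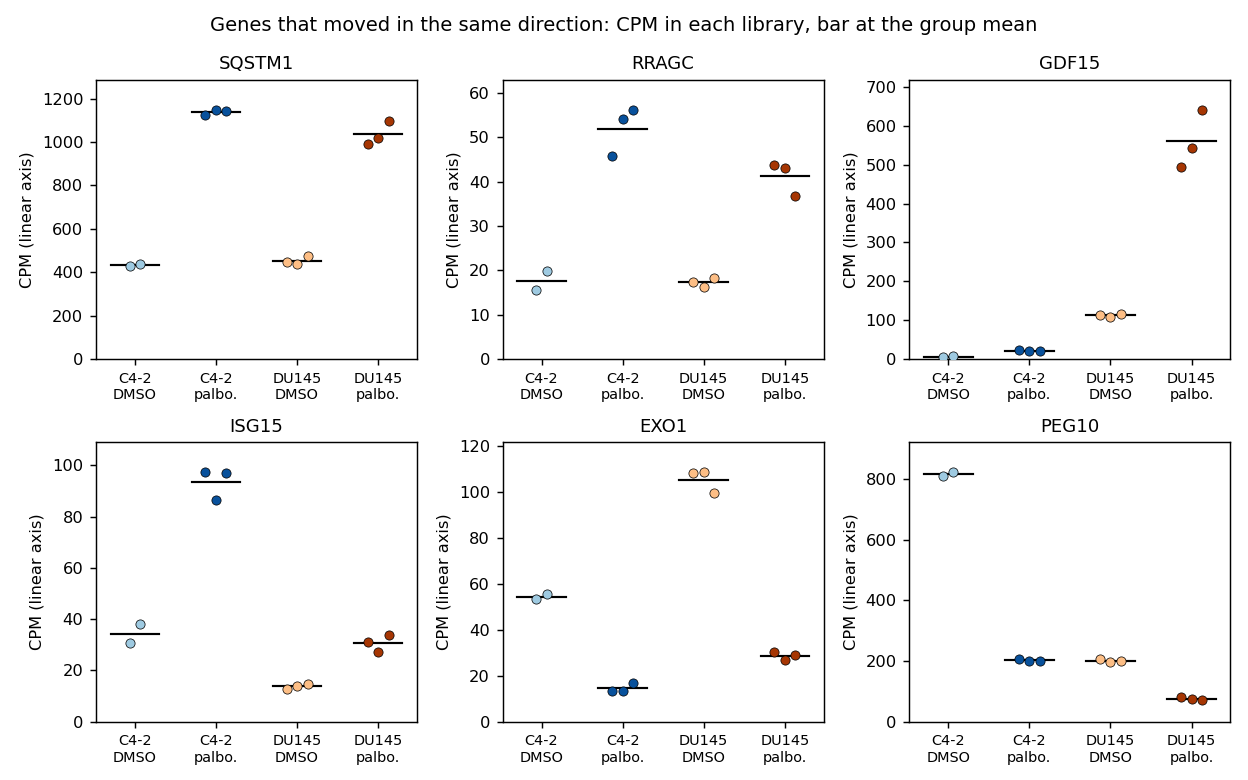
CPM in each library, on linear axes from 0, for 4 genes higher with palbociclib in both sets (SQSTM1, RRAGC, GDF15, ISG15) and 2 lower in both (EXO1, PEG10), with the group mean as a bar. SQSTM1 stands at 1124 to 1149 against 429.55 to 439 CPM in C4-2 and at 993 to 1095 against 438 to 476 CPM in DU145.

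Cytosolic ribosomal proteins fell slightly and alike. Of 72, 47 were lower in C4-2 and 50 in DU145, none was higher in either, and 66 had a similar response. The medians were -0.27 and -0.18. RPL3, a protein of the large subunit, fell by 0.50 ± 0.05 and 0.43 ± 0.05. Near-identical processed copies can take some of the reads of these genes. Of 69 mitochondrial ribosomal proteins, 26 were lower and none higher in C4-2, and 31 were higher (against 34% over all genes described) and 12 lower in DU145. Of these, 11 were called in opposite directions and 5 in the same direction, and the C4-2 count was 16 without C4-2 DMSO replicate 2. Of 55 nuclear-encoded respiratory chain genes, 29 were lower and 2 higher in C4-2, whereas 11 were higher and 12 lower in DU145, with 17 higher when replicate number was a block and 7 lower without DU145 DMSO replicate 2. Over all genes described, 27.3% were lower and 17% higher in C4-2, and 33.3% lower and 34% higher in DU145.

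Sterol genes mostly rose in DU145 and were mixed in C4-2. Of 27 cholesterol genes, 24 were higher and 1 lower in DU145 (median 0.58), while 3 were higher and 8 lower in C4-2 (median -0.06). MSMO1, a sterol oxidase, rose in both, by 0.94 ± 0.13 and 0.85 ± 0.07. Of 20 fatty acid genes, 4 were higher and 5 lower in C4-2 (3 lower without C4-2 DMSO replicate 2), near the 17% and 27.3% over all genes described. In DU145, 13 were higher and 5 lower.

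Immediate early and ERK feedback genes rose mainly in DU145, where 20 of 24 were higher and 3 lower. In C4-2, 9 were higher and 3 lower, and the 9 became 4 without C4-2 DMSO replicate 1, 5 without replicate 2 and 5 without C4-2 palbociclib replicate 3. FOSL1, an AP-1 subunit, read 84.1, 90.5 and 92.7 CPM against 138 and 139 CPM in C4-2, and 45.0, 44.8 and 51.8 CPM against 19.2, 17.0 and 19.3 CPM in DU145 (-0.73 ± 0.10 and 1.36 ± 0.08). JUN, its partner, read 0.09 ± 0.08 in C4-2 and rose by 1.37 ± 0.08 in DU145. DUSP1, a phosphatase that switches off MAP kinases, rose in both, by 0.60 ± 0.10 and 1.40 ± 0.06. Of 22 p53 targets, 5 were higher (against 17% over all genes described) and 7 lower in C4-2, and 14 higher and 3 lower in DU145, with medians of -0.07 and 0.29. In C4-2 the 5 became 3 without DMSO replicate 1 and 3 without DMSO replicate 2, and the 7 became 4 without DMSO replicate 2. Among them BAX, which drives apoptosis, fell by 0.65 ± 0.14 and rose by 0.47 ± 0.08, and TNFRSF10B, a death receptor, rose by 0.64 ± 0.08 and 0.51 ± 0.06.

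Cytoskeletal and matrix genes were among the remaining lists. Shares over all genes described were 17% higher and 27.3% lower in C4-2, 34% higher and 33.3% lower in DU145, and 27.8% with a similar response. Of 32 YAP/TAZ targets and contractile genes, 20 were lower and 1 higher in C4-2, and 13 were lower and 14 higher in DU145. ACTG1, the gamma actin, fell by 1.14 ± 0.05 and rose by 0.60 ± 0.05. WWTR1, which encodes TAZ, had -1.10 ± 0.09 and 0.66 ± 0.07. AXL, a receptor tyrosine kinase, fell in both, by 0.49 ± 0.07 and 1.08 ± 0.06. Of 24 matrix and mesenchymal genes, 9 were higher and 5 lower in C4-2, and 4 were higher and 15 lower in DU145. FBN1, fibrillin 1, read 0.01 ± 0.08 in C4-2 and fell by 1.42 ± 0.07 in DU145. Of 16 keratin, hemidesmosome and junction genes, 1 was higher and 4 lower in C4-2 (3 higher with the replicate block and 6 when that set was fitted alone), 3 were higher and 9 lower in DU145, and 8 had a similar response. Of 25 ER chaperones and unfolded protein response genes, 12 had a similar response, while HERPUD1, a factor of ER-associated degradation, rose by 1.0 ± 0.10 and fell by 0.72 ± 0.07. Of 30 glycolysis and hypoxia-type genes, 13 were lower and 8 higher in C4-2 (4 higher without C4-2 DMSO replicate 1), and 16 were lower and 6 higher in DU145 (10 higher with the replicate block, and 10 without DU145 DMSO replicate 3).

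**Figure D5:**
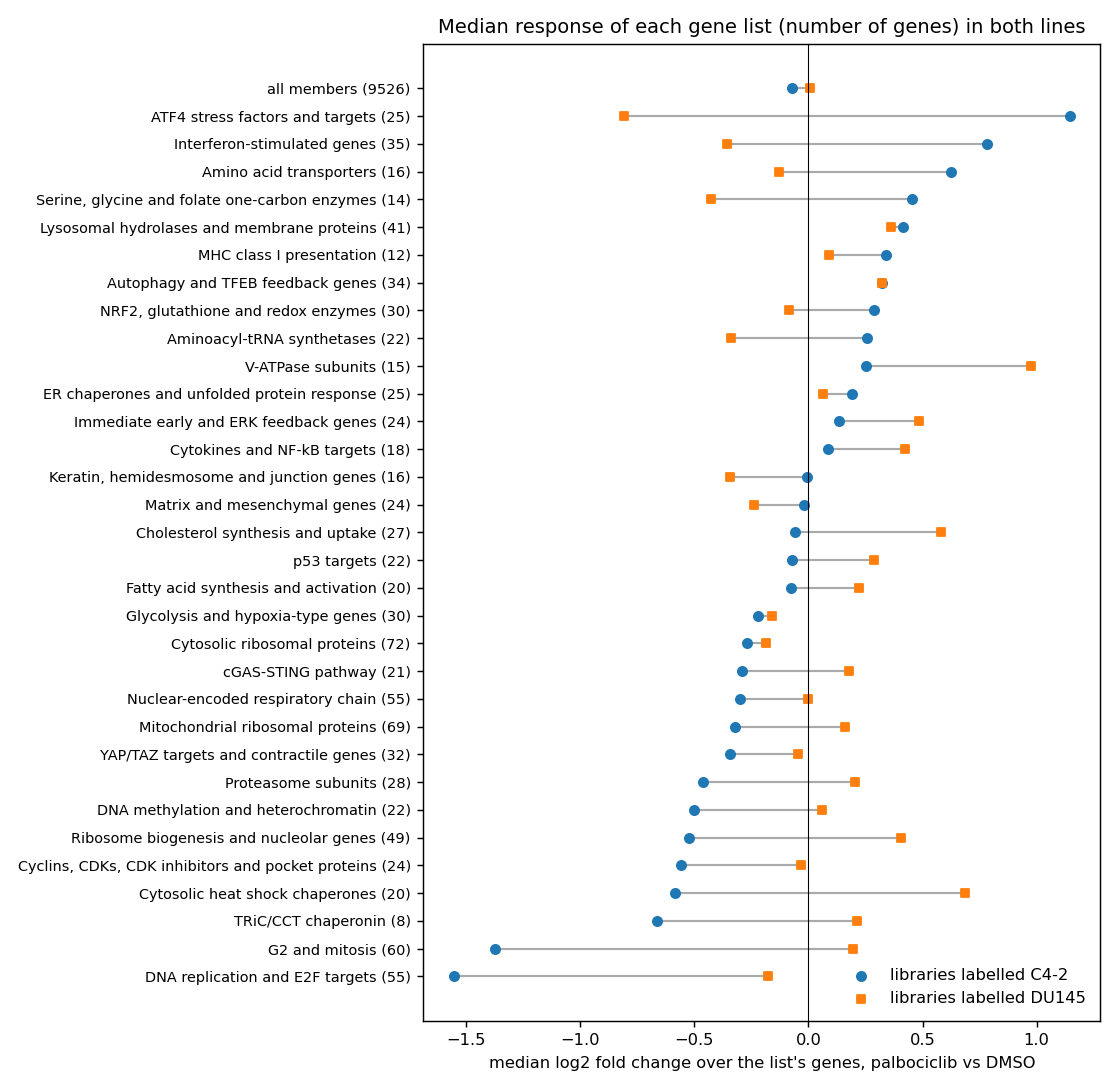
Median log2 fold change of each of the 32 gene lists, with the number of genes in brackets and all genes described at the top, in C4-2-labelled libraries (circles) and DU145-labelled libraries (squares). The ATF4 and interferon lists run from right to left of 0 (1.14 to -0.81 and 0.78 to -0.35), the heat shock and ribosome biogenesis lists the reverse, and the lysosomal, autophagy and ribosomal protein lists have both medians close together.

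Some genes responded in 1 set with a 95% interval inside 0.5 of 0 in the other. They were selected by these values, which are given as a description. LBH, a transcriptional cofactor, read 55.7, 49.1 and 49.1 CPM against 46.7 and 44.1 CPM in C4-2, and 1.87, 1.33 and 3.42 CPM against 25.8, 26.8 and 30.5 CPM in DU145 (0.08 ± 0.16 and -3.63 ± 0.16). SLC9A3-AS1, a noncoding RNA whose locus overlaps SLC9A3, read 16.3, 21.1 and 24.3 CPM against 19.8 and 18.6 CPM in C4-2, and 359.9, 385 and 437 CPM against 56.6, 48.1 and 56.7 CPM in DU145. The treatments overlapped in C4-2 and not in DU145 for SLC9A3-AS1, while LBH was slightly higher in each C4-2 palbociclib library. JMJD6, a histone arginine demethylase and lysyl hydroxylase, had -0.10 ± 0.12 and 1.77 ± 0.08, and HSPG2, the matrix proteoglycan perlecan, 0.07 ± 0.08 and -1.84 ± 0.07.

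FAM111B, E2F8 and MCM10 were among the 5 genes with the largest falls in C4-2 by the same rule. FAM111B, a cell-cycle regulated protease, read 2.77, 5.37 and 3.26 CPM against 45.3 and 47.1 CPM in C4-2 (-3.72 ± 0.27). The DU145 libraries gave 54.8, 65.8 and 49.7 CPM against 53.3, 56.2 and 37.1 CPM, which overlap (0.23 ± 0.11). The DU145 change did pass with the replicate block (0.23), without DU145 DMSO replicate 2 (0.34) and without DU145 palbociclib replicate 3 (0.31). It has no p here, since its interval near 0 was part of the choice. E2F8, a repressor of the E2F family, read 2.08, 3.07 and 2.96 CPM against 28.1 and 22.2 CPM in C4-2 (-3.32 ± 0.24), with 0.20 ± 0.10 in DU145, which also passed with the block. MCM10, a replication initiation factor, had -2.86 ± 0.16 and -0.06 ± 0.07. In the other direction, H2AC6, a histone gene, read 12.1, 17.2 and 14.8 CPM against 2.01 and 2.65 CPM in C4-2 (2.57 ± 0.30), with -0.12 ± 0.09 in DU145. Its C4-2 DMSO libraries hold few counts.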

How the data were processed

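RNA sequencing was measured in 12 libraries of 4 groups, and 11 were used because 1 C4-2 DMSO library held a count of 0 for every gene. The authors deposited raw read counts per gene. The C4-2 table came from featureCounts 2.0.1 on read pairs over exons of Ensembl 107, with no strand option, per the file headers, and hg38 is named per the submitters' processing notes. The aligner, counter and strand setting of the DU145 counts are not stated in any header or label that was read. The 37 mitochondrial genes were at 0 counts throughout the C4-2 table.

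The tables were joined by identifier. edgeR 4.0.16 (R 4.3.3, limma 3.58.1) fitted 1 quasi-likelihood model with 4 group means to all 11 libraries after filterByExpr, with TMM scaling and Benjamini-Hochberg adjustment over 18139 genes at 0.05. SE is the absolute log2 fold change divided by the square root of F. The code was tested on simulated data. Printed CPM use library totals, and fold changes use TMM factors.

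Of 56747 shared identifiers, 56668 matched a reference name. Genes named were the 10 largest in each opposite and each shared direction, the 5 largest in 1 set alone, up to 8 per list by interaction p or by size, and 18 pathway genes whatever their result. The interaction of the first kinds and of list genes follows from the choice and has no p. The members, the 32 lists and the motifs were chosen with earlier results of these data known. Same-numbered DU145 libraries deviated together (r = 0.18, 0.30 and 0.53), which is a hint at pairs from the data only. The main model was unpaired, and a block on replicate number in both sets was run as an alternative. Palbociclib 1 with DMSO 2 (r = 0.32) and palbociclib 2 with DMSO 1 (r = 0.14) deviated together as well, whereas pairs of replicate 3 with another number had r of -0.45 to -0.23, so the pattern sets replicate 3 apart and does not separate 1 from 2. In C4-2, r was -0.006 and 0.03. Alternatives were other scalings, DESeq2 1.42.0, other CPM and count limits, each set alone, DU145 thinned to C4-2 depth, a replicate block, and leaving out each library.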

Additional observations from a re-analysis of the deposited data

Results flagged for a closer look

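The response differed between the sets, by the test of the interaction itself, for 5062 genes. Among the 18 pathway genes given whatever their result, 13 had such a difference. The log2 response was higher in DU145 than in C4-2 by 2.62 for CCNE2, 1.77 for E2F1, 1.36 for CDKN1A, 1.24 for CGAS, 1.21 for CDK6, 1.13 for RBL1, 1.05 for CCND3, 1.04 for IRF3, 0.94 for CDK4 and 0.63 for CDKN2C. It was lower in DU145 for RBL2, with a difference of -0.93, for CCND1, with -0.91, and for CDKN1B, with -0.71. E2F1, RBL1, CCNE2 and CDKN2C fell in both sets, and the difference was one of size. The CCNE2 value rests on 11, 8 and 9 counts in the C4-2 palbociclib libraries, at a locus shared with INTS8 and NDUFAF6. CDK4, CDK6, CGAS, IRF3 and RBL2 were called in opposite directions.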

How the results depend on the processing

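The counts of calls in C4-2, in DU145, for the interaction, in the same direction and in opposite directions, and of similar responses, stayed within 1.5 times under each alternative run for them, and no named gene reversed. The interaction and the similar responses have no value when each set is fitted alone. Leaving out 1 library at a time gave 2942 to 4546 calls in C4-2, 5952 to 6504 in DU145, 4111 to 5257 for the interaction, 1084 to 1708 in the same direction, 976 to 1512 in opposite directions and 1994 to 2788 similar responses, with 5 of the 6 lowest values without C4-2 DMSO replicate 1. With a replicate block, calls were 4176 in C4-2, 7070 in DU145 and 5222 for the interaction, with 1686 in the same and 1533 in opposite directions. Of the values tested for named genes, 16 passed only with the block and 7 only without it. Without both DU145 libraries numbered 3, 1916 genes moved the same way and 1786 opposite ways. With DU145 thinned to C4-2 depth these counts were 1389 and 1225, and DESeq2 gave 1433 and 1283. The C4-2 and DU145 sets lie in separate tables of unequal depth, so a difference between their responses cannot be told apart from one between those data sets. Fitted alone, the sets gave 5240 calls in C4-2 and 6181 in DU145, against 4219 and 6410 in the joint fit with its shared estimate of spread. Between replicates of a group, the chi-square per degree of freedom, which is near 1 under counting error alone, was 1.14 to 1.18 in C4-2 and 2.36 to 8.36 in DU145. For an equal relative spread it is larger in deeper libraries, and the mean total in DU145 was 5.33 times that in C4-2. The values of the sets therefore cannot be compared as sizes of spread. The part of replicate spread in the calls was not tested. C4-2 depth limits small responses, and DU145 alone calls of small size cannot be read as absence in C4-2.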
